A study of Mus musculus with 6 samples.

Results

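The glutathione S-transferases described here are 10 genes of the mouse liver, taken by their gene names from the 6 libraries of the series: Gsta1, Gsta2, Gsta3 and Gsta4 of the alpha class, Gstm1, Gstm2 and Gstm3 of the mu class, Gstp1 of the pi class, and Gstt1 and Gstt2 of the theta class. They are 10 of 21528 genes listed in any library, and each of them was listed in every library. RNA came from the liver of 3 WT mice and 3 homozygous TRIM24C52/55A knockin mice, all on a C57BL/6 background, all 5 months old and all fed a high-fat diet (HFD, 60% fat) for 3 months, with 1 library per mouse. The knockin was made in C57Bl/6J mice with CRISPR/Cas9 and replaces a pair of cysteines of the RING domain of TRIM24, an E3 ubiquitin ligase, with alanine in every cell of the animal. WT mice were littermates from matings of heterozygotes, so that both genotypes shared the strain, the age and the diet.

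Glutathione S-transferases join the tripeptide glutathione to reactive, electrophilic compounds, which include drug metabolites, aldehydes from oxidised lipids and breakdown products of amino acids. The conjugates leave the hepatocyte through ABC transporters and are trimmed to mercapturic acids. The cytosolic enzymes are dimers, grouped into classes by sequence, and the liver is among the tissues richest in them. Many of their genes are known targets of the transcription factor NRF2 and of the nuclear receptors PXR and CAR, and several are known to differ in level between the sexes and between the zones of the liver lobule.

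The deposited values are FPKM, that is, fragments per kilobase of transcript, scaled to the mapped fragments of each library. By this definition they are per length, and levels of different genes are set side by side on that footing, although the lengths used and the division of shared reads are not given. Fold changes were fitted on log2(FPKM + 1) in the 12225 genes whose mean over the 6 libraries reached 0.5 FPKM, as TRIM24C52/55A minus WT, and are given with their standard error (SE). A gene was called when its adjusted p-value, over all genes tested, was under 0.05. By this rule 944 genes, or 7.72% of those tested, were called. The median log2 fold change of all genes tested was -0.075. How the libraries were scaled decided how the calls split, with 200 higher and 744 lower genes as deposited, 249 and 411 with median-of-ratios scaling, 255 and 378 with quantile normalization, and 197 and 1358 after rescaling to TPM. Each of the 10 members kept the sign of its fold change under all of these scalings. Of 10 hepatocyte markers, 8 were listed, while Alb and Tf were listed in no library, so sums and ranks here cover listed genes only. The 8 had a summed level of 19867 to 20095.5 FPKM in the WT and 20527 to 23272 FPKM in the TRIM24C52/55A libraries. Their median log2 fold change was 0.23, and Cps1 was called, higher (0.63).

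Of the 10 members, all of which passed the filter on low values, 7 were called. Gstp1 rose and Gsta1, Gsta2, Gsta3, Gstm1, Gstm2 and Gstt1 fell in the TRIM24C52/55A liver, while Gsta4, Gstm3 and Gstt2 did not pass the test. The count of 7 fell to 2 (Gstp1 and Gstt1) without WT replicate 1, WT replicate 3 or TRIM24C52/55A replicate 1, and to 4 without WT replicate 2, and it was 6 and 7 without TRIM24C52/55A replicates 2 and 3. Calls over all genes fell along with it, from 944 to 313, 301, 296 and 480 without the first 4 of these libraries. With each library left out in turn, the log2 fold changes ran from -2.04 to -1.37 for Gsta1, from -1.19 to -0.77 for Gsta2, from -0.62 to -0.48 for Gsta3, from -0.59 to -0.40 for Gstm1 and from -1.79 to -1.23 for Gstm2. It was 4 with median-of-ratios scaling and 2 without the filter on low values. Among all genes tested, 1.64% were called higher and 6.09% were called lower. The log2 fold changes of the 9 members other than Gstp1 were all below 0, with a median of -0.54, and that of the 10 members was -0.52. Of all 12225 genes tested, 8005 also had log2 fold changes below 0. The 3 WT and the 3 TRIM24C52/55A values did not overlap for Gstp1 on the higher side and for 7 members on the lower side, against 6.31% and 22.5% of all genes tested. For these 8 members the exact two-sided permutation test on FPKM gave p = 0.10, the smallest it can give with 3 against 3. In RNA from whole liver, fewer cells of a type and less RNA per cell cannot be told apart.

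**Figure D1:**
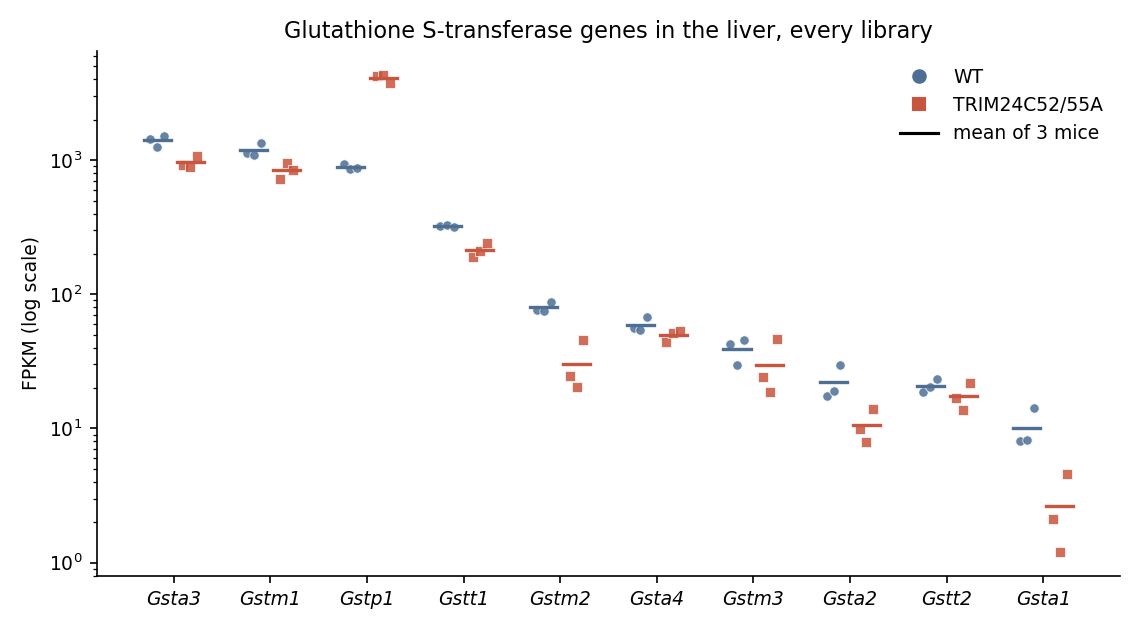
FPKM (log scale) of the 10 members in each library, ordered by their mean in WT liver, with circles for the 3 WT mice, squares for the 3 TRIM24C52/55A mice and a line at each mean of 3. Gstp1 lies between 865 and 941 FPKM in WT and between 3760.0 and 4345 FPKM in TRIM24C52/55A liver, and the other 9 members have a lower mean in TRIM24C52/55A liver.

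**Figure D2:**
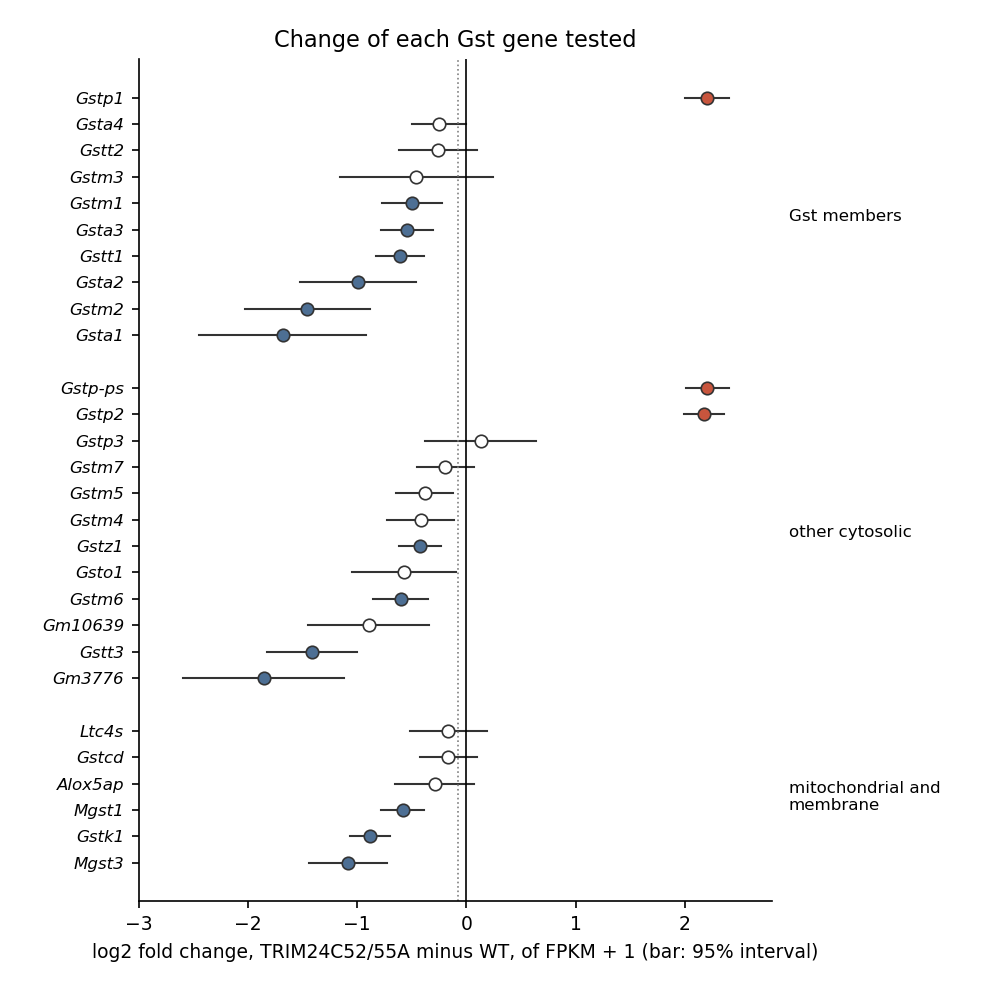
Log2 fold change of FPKM + 1, TRIM24C52/55A minus WT, of the 28 Gst genes tested, with 95% intervals, filled points for an adjusted p-value under 0.05, a solid line at 0 and a dotted line at the median of all genes tested. Gstp1, Gstp2 and Gstp-ps stand near 2.2, and 24 of the other 25 genes lie below 0, as do 8005 of all 12225 genes tested.

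Gstp1 encodes the pi class enzyme, which is also known for binding and restraining the stress kinase JNK and is known to be higher in male than in female mouse liver. The WT livers held 941, 865 and 869 FPKM, and the TRIM24C52/55A livers 4248, 4345 and 3760.0 FPKM. The lowest TRIM24C52/55A value was several times the highest WT value, and the spread within each genotype was small, with a coefficient of variation of 4.76% in WT and 7.61% in TRIM24C52/55A liver. The mean rose 4.62-fold, from 892 ± 42.4 to 4117 ± 313 FPKM (SD, n = 3 per genotype), with a log2 fold change of 2.20 (SE 0.089, adjusted p = 1.57e-05). Leaving out any 1 library kept the call, with an adjusted p of at most 0.000482.

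Gstp1 lies on chromosome 19 (chr19:4035407-4037921 in the files, GRCm38, minus strand) and has near-identical copies. Gstp2 lies next to it (chr19:4040285-4042236), and its coding sequence differs from that of Gstp1 at 12 bases, an identity of 98.1%. Gstp-ps, a processed pseudogene without introns, lies on chromosome 1 (chr1:192073820-192074450 in GENCODE M21) and is 97.6% identical to the Gstp1 transcript over 631 bases. The files give Gstp-ps an interval of 153.8 kb, many times its annotated length of 0.631 kb. Gstp3 (chr19:4057477-4059446) is more distant, at 73.6% identity to the coding sequence of Gstp1 over aligned bases. To show what a read could and could not tell apart, the longest coding exon of Gstp1 (186 bases, chr19:4035476-4035661, minus strand) is printed here from GENCODE M21, with the aligned stretch of Gstp3 (chr19:4057533-4057718, minus strand), in which capitals mark the 56 bases that differ from Gstp1. The same 186 bases of Gstp2 and of Gstp-ps differ from those of Gstp1 at 0 positions.
Gstp1: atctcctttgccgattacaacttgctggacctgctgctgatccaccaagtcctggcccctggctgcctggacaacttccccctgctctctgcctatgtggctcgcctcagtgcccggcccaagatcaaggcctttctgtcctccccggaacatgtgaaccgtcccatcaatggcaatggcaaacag
Gstp3: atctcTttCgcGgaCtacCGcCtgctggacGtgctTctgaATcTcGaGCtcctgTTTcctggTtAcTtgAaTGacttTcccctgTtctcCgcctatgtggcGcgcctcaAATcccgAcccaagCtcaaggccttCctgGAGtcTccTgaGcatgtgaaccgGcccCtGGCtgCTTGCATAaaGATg

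Over whole transcripts, 67.5% of the 31-base words of Gstp1 also occur in Gstp2 and 51.7% in Gstp-ps, against 0.632% in Gstp3. Gstp2 had 16.96, 15.2 and 16.1 FPKM in WT and 75.3, 72.3 and 80.5 FPKM in TRIM24C52/55A liver, a log2 fold change of 2.17 (SE 0.080, adjusted p = 1.57e-05). Gstp-ps had 127, 113 and 108 FPKM in WT and 551, 553 and 507 FPKM in TRIM24C52/55A liver, a log2 fold change of 2.20 (SE 0.086, adjusted p = 1.57e-05). Both followed Gstp1 at a nearly fixed share of its level, 1.67 to 2.14% for Gstp2 and 12.4 to 13.5% for Gstp-ps over the 6 libraries. Because of the shared sequence, how fragments were divided among these 3 genes is uncertain, and the rises of Gstp2 and Gstp-ps are not independent of that of Gstp1. With the FPKM of all 3 summed before the test, an alternative chosen after the data were seen, the log2 fold change was 2.21 (adjusted p = 3.03e-05).

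Gstp3 did not follow them. It had 18.0, 12.7 and 16.8 FPKM in WT and 14.004, 14.4 and 25.2 FPKM in TRIM24C52/55A liver, and the genotypes overlapped. Its log2 fold change was 0.13 (SE 0.22, 95% interval -0.38 to 0.64, adjusted p = 0.778), and the sign turned when WT replicate 2 (-0.013) or TRIM24C52/55A replicate 3 (-0.13) was left out.

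**Figure D3:**
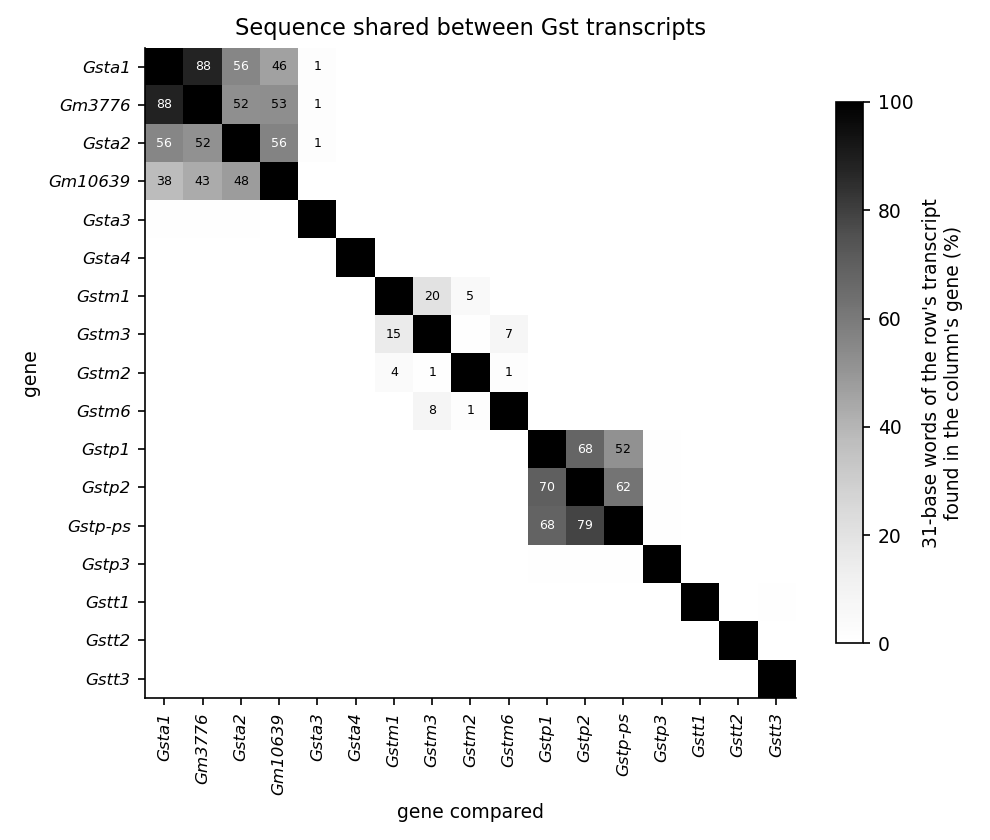
Share of the 31-base words of each gene's main transcript (row) that also occur in another Gst gene (column), in percent, from GENCODE M21 transcripts, with numbers printed from 1% upwards. The alpha genes Gsta1, Gm3776, Gsta2 and Gm10639 and the pi genes Gstp1, Gstp2 and Gstp-ps form blocks of shared sequence, while Gsta4, Gstt1 and Gstt2 share under 1% with any gene drawn.

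Because Gstp1 and Gstp2 were both called higher, with the reservation on shared fragments given above, the 250 bases before their RefSeq start sites (GRCm38.p6, minus strand, chr19:4037913-4038162 for Gstp1 and chr19:4042222-4042471 for Gstp2) are printed with motif matches in capitals. Both strands were searched for TGACNNNGC, the core of the antioxidant response element bound by NRF2, for GCGTG, the core of the dioxin response element bound by the aryl hydrocarbon receptor, and, after these promoters had been read, for TGAGTCAGC, an element of the kind bound by AP-1 and MAF proteins.
Gstp1 promoter: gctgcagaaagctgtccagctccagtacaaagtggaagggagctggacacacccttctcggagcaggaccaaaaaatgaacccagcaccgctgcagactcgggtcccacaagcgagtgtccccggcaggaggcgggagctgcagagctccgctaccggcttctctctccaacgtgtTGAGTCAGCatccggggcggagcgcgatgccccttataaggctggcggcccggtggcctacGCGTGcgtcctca
Gstp2 promoter: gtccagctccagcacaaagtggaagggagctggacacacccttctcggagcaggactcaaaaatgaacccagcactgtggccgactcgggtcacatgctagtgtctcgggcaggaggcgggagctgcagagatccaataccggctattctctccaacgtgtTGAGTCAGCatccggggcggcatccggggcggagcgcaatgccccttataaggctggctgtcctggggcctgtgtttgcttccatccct

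TGAGTCAGC begins 74 bases before the start of Gstp1 and 89 bases before that of Gstp2, it was not found in the promoter of Gstp3, and 0.414% of 32851 promoters hold it. The promoters of Gstp1 and Gstp2 are 86.2% identical over aligned bases, with 39 mismatches and 36 gap positions besides. Their matches are therefore not independent of each other, and the motif was picked from them. GCGTG begins 13 bases before the start of Gstp1 and was not found in the promoter of Gstp2. Within the 300-base windows (250 bases before to 50 after a start), 8 members had 9 promoters between them. GCGTG occurred in promoters of 4 members, Gsta1, Gsta2, Gstm1 and Gstp1, and in 32.4% of all promoters. TGACNNNGC occurred in that of Gsta3 alone, 121 bases before the start, and in 12.4% of all promoters. These matches are letters in a window and were not tested as binding sites. The letters TGACNNNGC do not cover TGAGTCAGC, and whether NRF2 binds TGAGTCAGC was not tested.

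The alpha class holds the main hepatic enzymes that act on lipid hydroperoxides and their aldehydes. Gsta3 (chr1:21240589-21271593 in the files, plus strand), the member with the highest mean in WT liver, encodes the enzyme known for detoxifying aflatoxin epoxide in mice. It had 1431, 1262 and 1514 FPKM in WT and 927, 897 and 1066 FPKM in TRIM24C52/55A liver. The genotypes did not overlap, and the mean fell to 68.7% of WT, with a log2 fold change of -0.54 (SE 0.10, adjusted p = 0.0195). The call was lost without WT replicate 1, WT replicate 3 or TRIM24C52/55A replicate 1 (adjusted p 0.0707 to 0.0841) and with median-of-ratios scaling (adjusted p = 0.0510).

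Gsta1 and Gsta2, which are known to be inducible by foreign compounds, fell further from a much lower level. Gsta1 had 8.004, 8.20 and 14.2 FPKM in WT and 2.12, 1.20 and 4.57 FPKM in TRIM24C52/55A liver. The mean was 3.85-fold lower in TRIM24C52/55A liver, with a log2 fold change of -1.68 (SE 0.33, adjusted p = 0.0227). Gsta2 had 17.6, 19.0 and 29.7 FPKM in WT and 9.84, 7.93 and 14.1 FPKM in TRIM24C52/55A liver. Its mean was 2.08-fold lower, with a log2 fold change of -0.99 (SE 0.23, adjusted p = 0.0391). WT replicate 3 was the highest WT library and TRIM24C52/55A replicate 3 the highest knockin library for both genes, and the genotypes did not overlap. The call of Gsta1 was lost when any 1 WT library or TRIM24C52/55A replicate 1 was left out (adjusted p 0.0523 to 0.0914). That of Gsta2 was lost without any 1 WT library or TRIM24C52/55A replicate 1 or 2 (adjusted p 0.0641 to 0.132), and with median-of-ratios or quantile scaling (adjusted p 0.0729 and 0.0730), and without a trend or with a robust estimate of the variance (adjusted p 0.0509 and 0.0585).

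Gsta1 and Gsta2 sit on chromosome 9 (chr9:78230656-78242684, plus strand, and chr9:78331018-78355788, minus strand) beside Gm3776 (chr9:78257129-78269166) and Gm10639 (chr9:78289923-78305525), predicted genes of the same class. The coding sequence of Gm3776 differs from that of Gsta1 at 2 bases, and 92.2% of the 31-base words of Gsta1 and 75.6% of those of Gsta2 occur in other genes. As an example, the stretch of 142 coding bases of Gsta1 (chr9:78239485-78239626, plus strand, GENCODE M21) is printed with that of Gsta2 (chr9:78333761-78333902, minus strand), in which capitals mark the 2 bases that differ. Gm3776 differs from Gsta1 at 0 of these bases.
Gsta1: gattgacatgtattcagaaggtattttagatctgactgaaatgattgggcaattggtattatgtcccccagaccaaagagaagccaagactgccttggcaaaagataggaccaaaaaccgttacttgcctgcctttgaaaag
Gsta2: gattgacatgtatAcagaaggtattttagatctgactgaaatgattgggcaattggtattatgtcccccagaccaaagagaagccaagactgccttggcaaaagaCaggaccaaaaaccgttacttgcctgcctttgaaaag

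Gm3776 had 7.06, 6.95 and 11.3 FPKM in WT and 1.01, 0.886 and 3.40 FPKM in TRIM24C52/55A liver, a log2 fold change of -1.85 (SE 0.32, adjusted p = 0.0144) whose call was lost without WT replicate 3 or TRIM24C52/55A replicate 1 (adjusted p 0.0608 to 0.0652). Gm10639 had 1.91, 1.49 and 3.64 FPKM in WT and 0.619, 0.487 and 1.18 FPKM in TRIM24C52/55A liver, with a log2 fold change of -0.89 (SE 0.24, adjusted p = 0.0626). The genotypes did not overlap for either gene, and Gm10639 was called without TRIM24C52/55A replicate 3 (adjusted p = 0.0486) and after rescaling to TPM (adjusted p = 0.0403). The level of Gm3776 was 79.4 to 88.2% of that of Gsta1 in WT and 47.4 to 74.4% in TRIM24C52/55A liver. How fragments were divided among these 4 genes is uncertain. Summed before the test, an alternative chosen after the data were seen, they had a log2 fold change of -1.42 (adjusted p = 0.0242).

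Gsta4 (chr9:78182774-78209349, plus strand) encodes the alpha enzyme known for its activity towards hydroxynonenal, an aldehyde from oxidised lipids, and shares none of its 31-base words with another gene. It had 56.0, 54.1 and 67.3 FPKM in WT and 44.2, 51.4 and 52.9 FPKM in TRIM24C52/55A liver. The highest TRIM24C52/55A value lay just under the lowest WT value, and the log2 fold change of -0.25 (SE 0.11, 95% interval -0.50 to 0.00065, adjusted p = 0.213) did not pass the test and was -0.15 without WT replicate 3.

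The mu class genes lie side by side on chromosome 3, and their enzymes act on a wide range of epoxides and quinones. Gstm1 (chr3:108012255-108017973, minus strand), the member with the next highest mean in WT liver, had 1131, 1091 and 1332 FPKM in WT and 727, 949 and 846 FPKM in TRIM24C52/55A liver. Its genotypes did not overlap, and its log2 fold change was -0.50 (SE 0.12, adjusted p = 0.0438). This call had the largest adjusted p among the 7 called members, and it was lost without any 1 WT library or TRIM24C52/55A replicate 1 or 3 (adjusted p 0.0756 to 0.144), and with median-of-ratios or quantile scaling (adjusted p 0.0677 and 0.0926), and without a trend in the variance (adjusted p = 0.0629). Taking the replicate number as a block, or dropping the filter on low values, lost the call of Gstm1 too. Of the 31-base words of Gstm1, 46.6% occur in other genes.

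Gstm2 (chr3:107981702-107986453, minus strand) had 76.2, 75.8 and 87.6 FPKM in WT and 24.6, 20.4 and 45.4 FPKM in TRIM24C52/55A liver. Every TRIM24C52/55A library was well below the WT libraries, but the knockin mice differed among themselves, with a coefficient of variation of 44.4% against 8.36% in WT. The mean was 2.65-fold lower, with a log2 fold change of -1.46 (SE 0.25, adjusted p = 0.0138). The call was lost without WT replicate 1, WT replicate 3 or TRIM24C52/55A replicate 1 (adjusted p 0.0501 to 0.0640).

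Gstm3 (chr3:107963696-107969283, minus strand) had 42.4, 29.5 and 45.4 FPKM in WT and 24.1, 18.7 and 46.8 FPKM in TRIM24C52/55A liver. TRIM24C52/55A replicate 3 was above every WT library, and the other 2 knockin libraries were below them. The log2 fold change was -0.46 (SE 0.31, 95% interval -1.16 to 0.24, adjusted p = 0.421). Without TRIM24C52/55A replicate 3 it was -0.83 and passed the test (adjusted p = 0.0463), and without TRIM24C52/55A replicate 2 it was -0.19. The same library had the highest knockin value of Gsta1, Gsta2, Gsta3, Gsta4, Gstm2, Gstt1 and Gstt2, and the lowest of Gstp1.

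Of the other mu genes, Gstm4, Gstm5, Gstm6 and Gstm7 were tested, and Gstm6 fell. Gstm6 had 63.5, 70.6 and 63.0 FPKM in WT and 38.9, 40.5 and 50.4 FPKM in TRIM24C52/55A liver, a log2 fold change of -0.60 (SE 0.11, adjusted p = 0.0177) whose call was lost without any 1 WT library or TRIM24C52/55A replicate 1 (adjusted p 0.0582 to 0.0703). Gstm4 had 41.6 to 45.9 FPKM in WT and 27.5 to 40.7 FPKM in TRIM24C52/55A liver, a log2 fold change of -0.42 (SE 0.13, adjusted p = 0.104) that was called without TRIM24C52/55A replicate 3 (adjusted p = 0.0156). The log2 fold changes of Gstm5, at 5.25 to 8.65 FPKM, and Gstm7, at 33.7 to 48.2 FPKM, were -0.38 (SE 0.11, adjusted p = 0.0857, and 0.0430 after rescaling to TPM) and -0.19 (SE 0.11, adjusted p = 0.365). That of Gstm7 was -0.063 without TRIM24C52/55A replicate 1.

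Theta class enzymes act on small halogenated compounds, and Gstt1 is known for its activity towards dichloromethane. Gstt1 (chr10:75783813-75798584, minus strand) had 325, 327 and 320.4 FPKM in WT and 189, 212 and 241 FPKM in TRIM24C52/55A liver. The WT libraries lay within a coefficient of variation of 1.07%, and every knockin library was below them. The mean fell to 65.9% of WT, with a log2 fold change of -0.61 (SE 0.095, adjusted p = 0.0103), and no library decided the call (adjusted p at most 0.0475 with 1 library left out). Gstt2 (chr10:75831845-75834881 in the files) had 18.7, 20.4 and 23.3 FPKM in WT and 16.8, 13.8 and 21.8 FPKM in TRIM24C52/55A liver. Its genotypes overlapped, and its log2 fold change was -0.26 (SE 0.16, 95% interval -0.62 to 0.10, adjusted p = 0.374), and it was -0.11 without TRIM24C52/55A replicate 2 and -0.42 without TRIM24C52/55A replicate 3. Gstt3, the theta gene beside them, had 37.9, 42.4 and 45.1 FPKM in WT and 10.9, 16.3 and 19.1 FPKM in TRIM24C52/55A liver. Its 2.71-fold lower mean, with a log2 fold change of -1.41 (SE 0.18, adjusted p = 0.00480), kept its call whichever library was left out (adjusted p at most 0.0253).

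Summed over the 10 members, FPKM were 4047, 3752 and 4303 in the WT libraries and 6213, 6515 and 6098 in the TRIM24C52/55A libraries, and the genotypes did not overlap (exact two-sided permutation p = 0.10, the smallest possible). The rise of the sum came from 1 gene: without Gstp1 the other 9 members summed to 3142 ± 276 FPKM in WT and 2158 ± 187 FPKM in TRIM24C52/55A liver (SD, n = 3), 0.687 times the WT level. Gstp1 made up 22.2 ± 1.71% of the sum in WT and 65.6 ± 3.49% in TRIM24C52/55A liver. The alpha class went from 37.0 to 16.4%, the mu class from 32.3 to 14.3% and the theta class from 8.58 to 3.69%. Gsta3, Gstm1, Gstp1 and Gstt1 together accounted for 93.8 to 98.3% of the sum in each library.

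**Figure D4:**
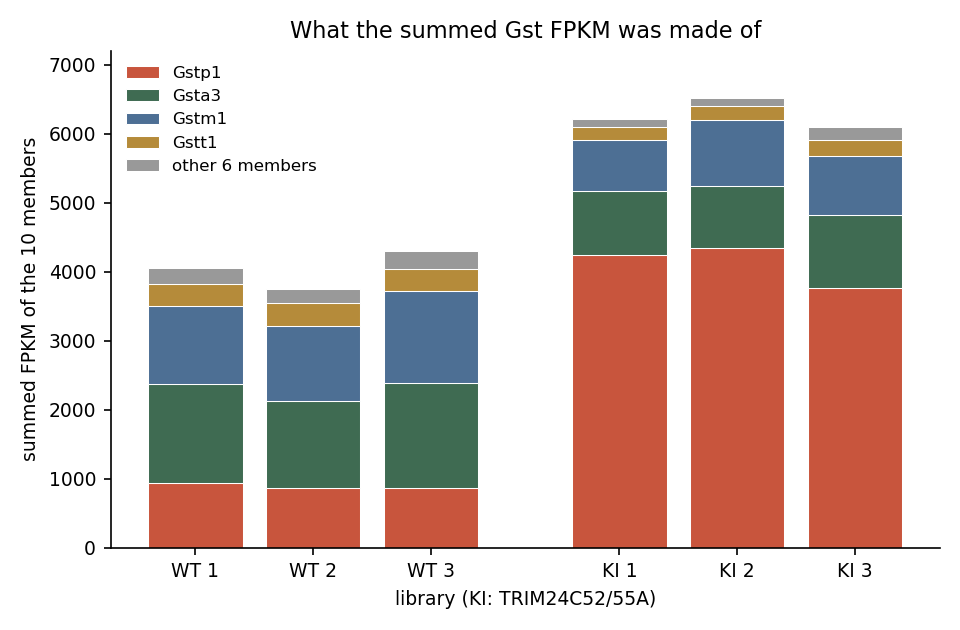
Summed FPKM of the 10 members in each library, stacked by gene, with WT libraries on the left and TRIM24C52/55A (KI) libraries on the right. The sum is 3752 to 4303 FPKM in WT and 6098 to 6515 FPKM in TRIM24C52/55A liver, and the Gstp1 segment grows while every other segment drawn has a lower mean.

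In WT liver the order of levels ran Gsta3, Gstm1, Gstp1, Gstt1, Gstm2, Gsta4, Gstm3, Gsta2, Gstt2 and Gsta1. Neighbours whose ranges over the 3 libraries overlapped were Gsta3 with Gstm1, Gstm3 with Gsta2, and Gsta2 with Gstt2. In TRIM24C52/55A liver Gstp1 stood first, with every library above every library of Gsta3. Gsta3 and Gstm1 overlapped there too, as did the neighbours from Gsta4 down to Gsta2. Among the 12225 genes tested, ranked by mean FPKM, Gstp1 went from rank 96 in WT to rank 35 in TRIM24C52/55A liver, Gsta3 from 74 to 91, and Gsta1 from 4464 to 8361.

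Outside the classes of the 10 members, Gstz1 of the zeta class, which is the maleylacetoacetate isomerase of tyrosine breakdown, had 383, 378 and 410.5 FPKM in WT and 275, 279.7 and 319 FPKM in TRIM24C52/55A liver. Its log2 fold change was -0.42 (SE 0.084, adjusted p = 0.0229), and the call was lost without any 1 WT library or TRIM24C52/55A replicate 1 (adjusted p 0.0605 to 0.0917) and with median-of-ratios and quantile scaling. Gsto1 of the omega class had 54.6, 57.0 and 65.6 FPKM in WT and 43.1, 51.7 and 27.05 FPKM in TRIM24C52/55A liver, a log2 fold change of -0.57 (SE 0.21, adjusted p = 0.1398) that was called without TRIM24C52/55A replicate 2 (adjusted p = 0.0455) and was -0.31 (adjusted p = 0.180) without TRIM24C52/55A replicate 3. For Gstm5, Gstz1 and Gsto1 the files' interval was longer than the annotated gene, at 21.46 against 2.866 kb, 57.86 against 17.56 kb and 181.7 against 9.821 kb, and Gsto1 shares its interval with Gsto2. What these intervals stand for is not given, so the levels of these genes are uncertain. Gsto2 and Hpgds were below the filter, and Gsta5, Gsta6, Gsta13, Gm8074 and Gstt4 were not listed under these names in any library. Over the 12 other cytosolic genes tested, 2 were called higher (Gstp2 and Gstp-ps) and 4 lower, beside 1.64% and 6.09% of all genes tested. Their median log2 fold change was -0.42.

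Glutathione transferases of the mitochondrion and of membranes belong to unrelated families. Gstk1, the kappa enzyme of mitochondria and peroxisomes, had 169.9, 170.3 and 179.9 FPKM in WT and 89.9, 89.7 and 102 FPKM in TRIM24C52/55A liver. It fell with a log2 fold change of -0.88 (SE 0.079, adjusted p = 0.00110). Mgst1, the microsomal enzyme that also reduces lipid hydroperoxides, was more abundant in WT than any of the 10 members, at 3342, 3453 and 3591 FPKM, and had 2246, 2200.4 and 2499 FPKM in TRIM24C52/55A liver, a log2 fold change of -0.58 (SE 0.086, adjusted p = 0.00853). Mgst3 had 20.3, 16.2 and 23.5 FPKM in WT and 7.23, 9.75 and 9.61 FPKM in TRIM24C52/55A liver, a log2 fold change of -1.08 (SE 0.15, adjusted p = 0.00742). These 3 genes, whose genotypes did not overlap, kept their calls with any 1 library left out (adjusted p at most 0.0478). Without the filter on low values, Mgst1 lost its call (adjusted p = 0.0550). Gstcd, Alox5ap and Ltc4s, at 0.347 to 3.47 FPKM, had log2 fold changes of -0.17 (SE 0.11, adjusted p = 0.436), -0.29 (SE 0.16, adjusted p = 0.325) and -0.16 (SE 0.15, adjusted p = 0.581). With 1 library left out these ran from -0.25 to -0.096, from -0.42 to -0.18 and from -0.24 to -0.035. Mgst2 and Ptges were below the filter. The files' interval of Ltc4s was also longer than the annotated gene, at 55.84 against 2.156 kb. Of all 28 Gst genes tested, 16 were called, 3 higher and 13 lower, beside 1.64% and 6.09% of all genes tested. The 3 higher were Gstp1 and its near-identical copies. The 28 include the pseudogene Gstp-ps and other copies that share sequence, so they are not independent of each other.

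Of 14 tested genes of glutathione synthesis and breakdown, 3 were called, all lower, beside 7.72% of all genes tested, with a median log2 fold change of -0.17. Gclc, the catalytic subunit of the rate-limiting enzyme of glutathione synthesis, had 126 to 151 FPKM in WT and 88.8 to 98.6 FPKM in TRIM24C52/55A liver (log2 fold change -0.53, SE 0.089, adjusted p = 0.0132), while its modifier Gclm and the synthetase Gss did not pass the test (log2 fold changes -0.20 and -0.25, adjusted p 0.314 and 0.0954). Ggct, which breaks down gamma-glutamyl peptides, had a log2 fold change of -0.69 (SE 0.14, adjusted p = 0.0223), and Slc3a2, the heavy chain of amino acid exchangers, one of -0.37 (SE 0.084, adjusted p = 0.0350). The calls of Gclc (without WT replicate 1 or 3), Ggct (without WT replicate 1 or 3 or TRIM24C52/55A replicate 1) and Slc3a2 (without any library but TRIM24C52/55A replicate 2) were lost, with adjusted p up to 0.0548, 0.0901 and 0.138.

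Of 19 genes of glutathione reduction, peroxidases and NADPH supply, 6 were called, all lower, beside 6.09% of all genes tested called lower, with a median of -0.28. Me1, the malic enzyme that supplies NADPH for lipogenesis, had 136 to 204 FPKM in WT and 55.4 to 65.8 FPKM in TRIM24C52/55A liver (log2 fold change -1.39, SE 0.16, adjusted p = 0.00304). Gpx4, the peroxidase that protects membrane lipids, fell by 0.72 (SE 0.085, adjusted p = 0.00335) and Glrx, glutaredoxin, by 0.88 (SE 0.095, adjusted p = 0.00237) on the log2 scale. Pgd of the pentose phosphate pathway fell by 0.64 on the log2 scale (SE 0.13, adjusted p = 0.0265), a call lost without WT replicate 1 or 2 or TRIM24C52/55A replicate 1 (adjusted p up to 0.0940). Glutathione reductase, Gsr, with 26.8 to 28.9 FPKM in WT and 22.7 to 26.5 FPKM in TRIM24C52/55A liver, did not pass the test (log2 fold change -0.18, adjusted p = 0.246).

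Among 16 genes of mercapturate formation and conjugate export, 4 were called higher and 1 lower, beside 1.64% and 6.09% of all genes tested. The median of -0.067 was close to that of all genes tested. Nat8 and Nat8f1 belong to the family of the cysteine-conjugate N-acetyltransferase, which makes mercapturates. Nat8f2 of the same family, at 303 to 365 FPKM in WT and 227 to 355 FPKM in TRIM24C52/55A liver, did not pass the test (log2 fold change -0.25, SE 0.16, adjusted p = 0.390). Nat8 had 9.57, 9.18 and 10.3 FPKM in WT and 24.5, 18.8 and 26.3 FPKM in TRIM24C52/55A liver (log2 fold change 1.17, SE 0.13, adjusted p = 0.00249). Nat8f1 had a log2 fold change of 0.42 (SE 0.088, adjusted p = 0.0285), lost without any 1 WT library or TRIM24C52/55A replicate 1 (adjusted p up to 0.111), and Kyat1, a cysteine-conjugate lyase, one of 0.54 (SE 0.083, adjusted p = 0.00955). The fourth gene called higher was the exporter Abcg2 (log2 fold change 0.36, adjusted p = 0.0394). Abcc3, an exporter of the sinusoidal membrane known to be inducible, had 63.2 to 79.9 FPKM in WT and 26.1 to 34.9 FPKM in TRIM24C52/55A liver (log2 fold change -1.24, SE 0.13, adjusted p = 0.00213). The canalicular exporter of glutathione conjugates, Abcc2, did not pass the test (log2 fold change -0.12, SE 0.095, adjusted p = 0.487).

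**Figure D5:**
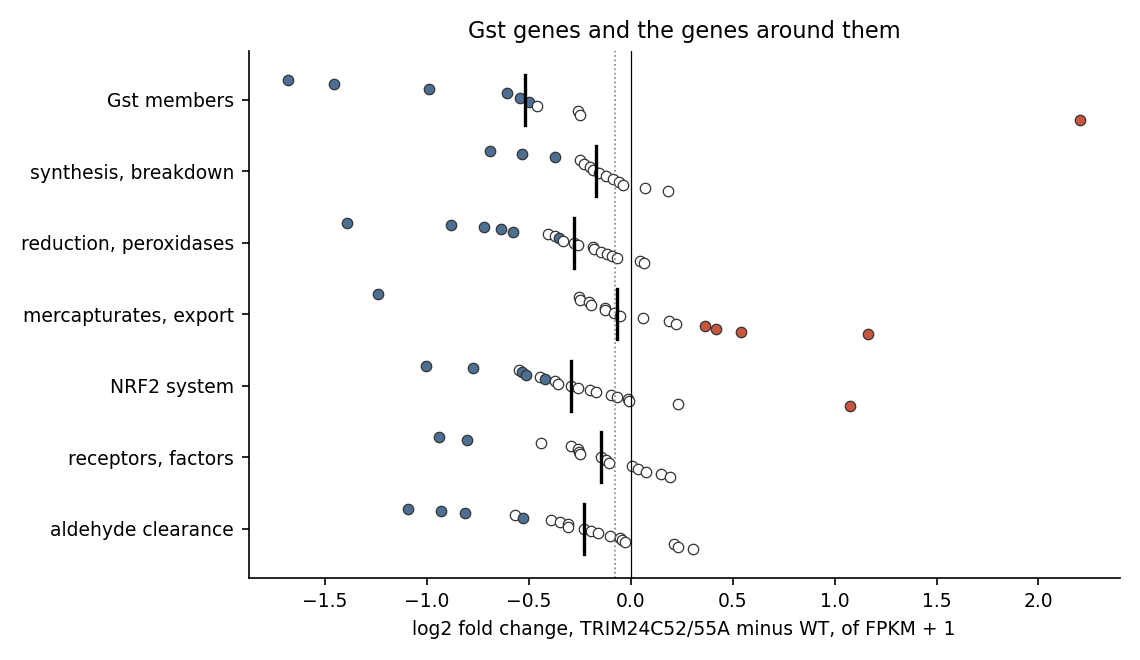
Log2 fold change of FPKM + 1, TRIM24C52/55A minus WT, of each tested gene of the 10 members and of 6 lists around them, with filled points for an adjusted p-value under 0.05, a black bar at each list's median and a dotted line at the median of all genes tested. Gstp1, at 2.20, is the highest point drawn, and the list of mercapturate formation and export holds 4 of the 5 called genes on the higher side outside the members.

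Nfe2l2, which encodes NRF2, had 35.2, 41.2 and 38.6 FPKM in WT and 32.7, 26.4 and 34.6 FPKM in TRIM24C52/55A liver (log2 fold change -0.29, SE 0.11, adjusted p = 0.166), and Keap1, its inhibitor, had a log2 fold change of -0.26 (SE 0.078, adjusted p = 0.0880), which passed the test after rescaling to TPM (adjusted p = 0.0352). Of 19 genes of the NRF2 system tested, targets included, 5 were called lower and 1 higher, beside 6.09% and 1.64% of all genes tested, with a median of -0.29. The target Nqo1 had 5.30, 3.56 and 7.34 FPKM in WT and 1.77, 1.69 and 3.02 FPKM in TRIM24C52/55A liver (log2 fold change -1.002, SE 0.24, adjusted p = 0.0395), and Srxn1, sulfiredoxin, had a log2 fold change of -0.77 (SE 0.11, adjusted p = 0.00774). Osgin1, a stress-response gene, rose by 1.08 on the log2 scale (SE 0.24, adjusted p = 0.0331). The calls of Nqo1 and Osgin1 were lost without WT replicate 1 or 3 or TRIM24C52/55A replicate 1 or 2, with adjusted p up to 0.144 and 0.124.

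Of 15 receptors and other factors tested, 2 were called, both lower, beside 6.09% of all genes tested called lower. Nr1i3, which encodes CAR, had 120.0, 101 and 139.9 FPKM in WT and 76.8, 61.0 and 67.0 FPKM in TRIM24C52/55A liver (log2 fold change -0.80, SE 0.13, adjusted p = 0.0127), with an adjusted p of 0.0516 without WT replicate 1. Nr1i2, which encodes PXR, had a log2 fold change of -0.11 (SE 0.12, 95% interval -0.39 to 0.18, adjusted p = 0.669), and Stat5b, the mediator of growth hormone pulses in male liver, one of 0.15 (SE 0.14, adjusted p = 0.572). With 1 library left out, that of Stat5b ran from 0.00071 to 0.28. Cebpb, a liver-enriched transcription factor, fell by 0.94 on the log2 scale (SE 0.23, adjusted p = 0.0428), a call lost without any 1 WT library or TRIM24C52/55A replicate 1 (adjusted p up to 0.128). Of 19 genes that clear reactive aldehydes by other routes, 4 were called, all lower, beside 6.09% of all genes tested called lower, with a median of -0.23. Aldh3a2, the fatty aldehyde dehydrogenase, had 319.9 to 409.6 FPKM in WT and 143 to 174 FPKM in TRIM24C52/55A liver (log2 fold change -1.09, SE 0.12, adjusted p = 0.00273), and Cbr1 (-0.81, adjusted p = 0.0112), Aldh1b1 (-0.93, adjusted p = 0.0498) and Aldh1a7 (-0.53, adjusted p = 0.0439) were the others. The call of Cbr1 was lost without TRIM24C52/55A replicate 1 (adjusted p = 0.0532), and those of Aldh1b1 (adjusted p up to 0.168) and Aldh1a7 (up to 0.141) without that library or any 1 WT library, and for Aldh1b1 also without TRIM24C52/55A replicate 2. Counting all 16 alternatives, the calls were lost in 13 for Aldh1b1, 10 each for Cebpb and Slc3a2, 9 for Aldh1a7, 7 each for Nqo1 and Pgd, 6 each for Osgin1 and Nat8f1, 4 for Ggct, 3 for Gclc, 2 for Nr1i3 and 1 for Cbr1. Over the 6 lists, with each gene counted once, 25 of 100 genes tested were called, 5 higher and 20 lower, with a median of -0.19. Over all genes tested, 1.64% were called higher and 6.09% lower.

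Other sets of genes moved with the members. Of 24 genes known to be male-biased in mouse liver, 20 were called higher and 1, Fitm1, lower (log2 fold change -1.13), beside 1.64% and 6.09% of all genes tested. The list summed to 17044 to 28313 FPKM in WT and 66819 to 76891 FPKM in TRIM24C52/55A libraries. The largest changes were those of Obp2a, an odorant-binding protein (log2 fold change 6.604), Selenbp2, a selenium-binding protein (4.95), and Hsd3b5, a male-specific steroid dehydrogenase (4.31). Of 19 tested genes known to be female-biased, 10 were called, all lower, beside 6.09% of all genes tested called lower. Among the 10 were Cyp17a1, a steroid hydroxylase (-2.96), and Cyp4a14 and Acot3 (-2.22 and -2.21), which are also known targets of PPARalpha. The 30 listed female-biased genes summed to 876 to 1346 FPKM in WT and 224 to 439 FPKM in TRIM24C52/55A liver. The labels give no sex for the mice, while the paper names 5-month-old males for its Q-PCR and protein panels of WT and TRIM24C52/55A livers on HFD. The Y-linked gene Eif2s3y had 26.95 to 28.8 FPKM in WT and 24.2 to 25.2 FPKM in TRIM24C52/55A liver, and Xist, which is expressed from the inactive X chromosome of females, had at most 0.0040 FPKM in any library. Whether Gstp1 and the members that fell moved as part of these sets was not tested.

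Of 12 markers of pericentral hepatocytes, the zone in which many Gst genes are known to be higher, 7 were called, all lower, beside 6.09% of all genes tested called lower. The sum of the 12 was 5141 to 6543 FPKM in WT and 3687 to 4990 FPKM in TRIM24C52/55A liver. Oat (log2 fold change -1.78), Glul (-1.06) and Lect2 (-1.001) had the largest changes among those called. Of the 5 that did not pass the test, 3 had log2 fold changes above 0, Rgn (0.56), Cyp1a2 (0.35, with genotypes that did not overlap) and Axin2 (0.097). The part of zonation in the changes of the members was not tested.

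Of the markers of other cell types, the calls were 0 of 12 for Kupffer cells and macrophages, 0 of 11 for stellate cells, 0 of 7 for cholangiocytes, 1 of 10 for sinusoidal endothelium (Lyve1, log2 fold change -1.26) and 1 of 4 for lymphocytes and neutrophils (Cd4, 1.11) by the same limma test. Over all genes tested, 7.72% were called. All 12 Kupffer cell and macrophage markers had log2 fold changes below 0, the side of most members and of 8005 of the 12225 genes tested. Their median was -0.28, and their part in the result was not tested. Their summed levels were 286 to 358 FPKM in WT and 236 to 340.1 FPKM in TRIM24C52/55A liver. Those of stellate cell markers were 160.3 to 169 and 146 to 181 FPKM, those of sinusoidal endothelial markers 172 to 179 and 164 to 169 FPKM, those of cholangiocyte markers 37.0 to 62.3 and 28.9 to 46.3 FPKM, and those of lymphocyte and neutrophil markers 8.33 to 15.1 and 6.85 to 12.7 FPKM. Every marker of these 5 lists was above 0 in at least 1 library. At an unadjusted p under 0.05 the counts were 2 for Kupffer cells and macrophages, 5 for stellate cells and 3 for cholangiocytes. Of 10 adipocyte markers tested, Adrb3 was called higher (log2 fold change 1.86) and Cidec, which is also a lipid droplet gene of fatty liver, lower (-2.36), and the list summed to 41.7 to 56.8 FPKM in WT and 20.2 to 89.8 FPKM in TRIM24C52/55A liver. TRIM24C52/55A replicate 2 held the adipocyte genes Adipoq (4.55 FPKM, at most 0.127 elsewhere), Plin1, Lep and Retn, and 6 of the 10 members were called without that library. WT replicate 1 held the most globin RNA, with summed erythroid markers of 1802 FPKM against 674 FPKM in the lowest WT library and 523 to 730.2 FPKM in the TRIM24C52/55A libraries. Without it the log2 fold changes were -1.81 for Gsta1, -1.13 for Gsta2, -0.53 for Gstm1 and -1.49 for Gstm2, larger in size than with all 6 libraries, and -0.52 for Gsta3, -0.60 for Gstt1 and -0.39 for Gstm3, smaller in size, and the part of globin RNA was not tested.

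Outside the Gst genes, which were left out of this search, the genes whose pattern over the 6 libraries was most like that of Gstp1, by the Euclidean distance of log2(FPKM + 1) values centred on each gene's mean, were Wfdc12, Dnaic1 and Cyp4v3, at distances of 0.357, 0.523 and 0.595. Wfdc12, a small secreted protease inhibitor of the WAP family, was listed at 0 in every WT library and had 3.07, 3.10 and 2.33 FPKM in TRIM24C52/55A liver. Dnaic1, a dynein chain of cilia, averaged 0.0847 FPKM in WT and 4.08 FPKM in TRIM24C52/55A liver. Both passed the filter through the TRIM24C52/55A libraries alone, and their distance depends on the pseudocount of 1, so that their likeness to Gstp1 is on this scale only. Cyp4v3, a fatty acid hydroxylase, had 108, 112 and 116 FPKM in WT and 449, 349 and 415 FPKM in TRIM24C52/55A liver. For Gstt1 the nearest genes were Slc10a1, the sodium-dependent bile acid transporter NTCP, at a distance of 0.130, and Glrx5 and Cryz, at 0.132 and 0.133. Slc10a1 had 328, 330.3 and 341 FPKM in WT and 194, 220.4 and 228 FPKM in TRIM24C52/55A liver, beside 320.4 to 327 and 189 to 241 FPKM for Gstt1.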

How the data were processed

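Liver RNA of 3 WT and 3 TRIM24C52/55A mice was sequenced, with 1 library per mouse, and the samples were grouped by genotype as the labels give it. The authors deposited 1 table of FPKM values per library, which lists values above 0 only, and a gene not listed in a library was taken as 0. The submitters' processing notes name bcl2fastq, Salmon 0.14.0, DESeq2 1.30.0 and GRCm38 without their roles. How the deposited FPKM were computed, and how reads shared by near-identical genes were divided, is not given in the sources used here. The files hold no counts, so total depth is unknown, and no counting interval is given. The low FPKM values put the depth of each library at 0.966 to 1.03 times that of WT replicate 1. Between 17709 and 17984 genes were listed per library.

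Values were analysed as log2(FPKM + 1) with limma 3.58.1 in R 4.3.3 (linear model of genotype, empirical Bayes with a trend), in genes whose mean over the libraries reached 0.5 FPKM, with Benjamini-Hochberg adjustment over all genes tested and a threshold of 0.05. Fold changes on this scale understate changes of low genes. Single values were also compared by an exact two-sided permutation test. Beyond separate animals, the labels do not say how replicates were obtained, so p-values measure the spread between these samples. Tables, figures and sequence searches used Python 3.11.15, pandas 2.3.3, scipy 1.17.1, Biopython 1.88 and matplotlib 3.10.9, and the tests were checked on simulated data. Sequences came from GENCODE M21 and RefSeq (GRCm38.p6).

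All 10 members and every other tested Gst gene were named, of each pathway list at most the 4 called genes with the largest change plus Nfe2l2, Keap1, Nr1i2, Nr1i3 and Stat5b, of each marker list at most the 3 called genes with the largest change, and the 3 genes most like Gstp1 and like Gstt1. Gclm, Gss, Gsr, Abcc2, Abcg2, Nat8f2, Fitm1, Rgn, Cyp1a2, Axin2, Eif2s3y, Xist and the adipocyte genes were named outside this rule, after their values were seen. The members and the lists were chosen with earlier results of these data known. The 16 alternatives changed the pseudocount, the filter, the scaling, the variance model, the replicate block or the libraries included.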

Additional observations from a re-analysis of the deposited data

How the results depend on the processing

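The log2 fold changes of the 10 members kept their sign under all 16 alternatives, and Gstp1 (2.02 to 2.31) and Gstt1 (-0.69 to -0.45) stayed past the threshold under each. Counts of calls moved more. Without the filter on low values, which adds genes to the adjustment, 347 genes in all were called, with 2 members (1 lower), 5 other Gst genes and 11 pathway genes. Rescaling to TPM gave 1555 genes in all. Median-of-ratios scaling gave 4 members (3 lower) and 16 pathway genes, and quantile normalization 15 pathway genes. Median-of-ratios and quantile scaling moved the median of all genes from -0.075 to 0.0059 and 0.010 (log2), and TPM to -0.14. With 1 library left out, the counts ranged from 296 to 1272 genes in all, 2 to 7 members (1 to 6 lower), 6 to 11 other Gst genes and 9 to 23 pathway genes. With 1 library left out, the log2 fold change ran from -0.13 (without TRIM24C52/55A replicate 3) to 0.27 for Gstp3, whose sign also turned without WT replicate 2 (-0.013), and from -0.24 to 0.0038 (without TRIM24C52/55A replicate 3) for Nr1i2, whose sign also turned with quantile normalization (0.029), and neither gene was called in any fit. Beyond fewer samples or more genes tested, the cause of these moves was not tested. Samples with the same replicate number did not deviate together (r = -0.12, -0.099 and 0.0027), so they were not paired, and a fit with the replicate number as a block called 578 genes in all, 6 members (Gstm1 was lost, adjusted p = 0.0656), 10 other Gst genes (Gm10639 was gained, adjusted p = 0.0185) and 19 pathway genes. Total depth is unknown, and 3 mice per genotype limit the precision.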
